A study of Mus musculus with 2 samples.

Results

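Genes for enzymes that write or erase histone and DNA marks were examined in open chromatin of the aged mouse ovary. The set holds every protein-coding gene of the GENCODE M21 annotation whose symbol is Kdm, Kmt, Hdac, Sirt, Dnmt, Tet, Prmt or Setd followed by a digit, plus Ezh1, Ezh2, Eed, Suz12, Crebbp and Ep300. These are 74 of 21951 protein-coding genes, and 73 of 21755 when chromosome Y is left aside. The rule uses gene symbols alone and no measured value. Open chromatin was measured by DNase-seq, which reads where the nuclease DNase I cuts accessible DNA. The tissue was whole ovary of B6CASTF1/J female mice, first-generation hybrids of C57BL/6 and CAST parents, aged 18 to 20 months. There was 1 group of 2 libraries, labelled biological replicates 1 and 2, each with its own biosample and both listed under 1 donor. No treatment, transgene, younger animal or other tissue is among them, so no change with age was measured.

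Methyltransferases of the KMT, SETD, EZH and PRMT families add methyl groups to lysine or arginine residues of histones and other proteins, and KDM demethylases remove them from lysine. CBP and p300 (Crebbp and Ep300) are acetyltransferases found at active promoters and enhancers, while HDACs and sirtuins take acetyl groups off. DNMT enzymes methylate cytosine in CpG pairs, and TET dioxygenases oxidise that methyl group as a first step of its removal. Most of these enzymes are used in nearly every cell, whereas some, such as DNMT3L and DNMT3C in germ cells and PRMT8 in neurons, are known for narrow expression.

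A promoter was the 500 bp either side of any annotated transcript start of the gene, and it is called open here if a peak of the longer deposited list overlapped it in both replicates. Promoter signal is the strength of the strongest such peak, in the depth-scaled units of the authors. The longer lists held 95898 peaks in replicate 1 and 83982 in replicate 2, and the footprint lists 181762 and 200993 short stretches protected within open sites. The number of reads behind a peak is not stated. Of all coding genes, 62.3% were open. Of 14 marker genes of granulosa, steroidogenic and stromal cells, 13 were open (Fshr was not), with mean signals from 0.883 (Cyp19a1) to 5.83 (Star). Open too were 0 of 4 oocyte markers, 1 of 3 endothelial markers and 3 of 15 markers of macrophages, T cells, liver, brain and skeletal muscle. These 3 were Lck, Syp and Ckm, with means of 4.07, 1.88 and 1.23, inside the range of the ovarian markers. In whole tissue, a weak peak in many cells and a strong peak in few cells cannot be told apart.

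Sequences are given in 2 sets, both from the GRCm38 reference, which is build mm10. The first is the promoter of Kdm6a, a demethylase of methylated lysine 27 of histone H3, which had the strongest promoter of the set, and the 2 strongest sites upstream of its relative Kdm6b outside any exon of that gene. They are written on the strand of the gene, with capitals for bases that lay in footprints of both replicates. The Kdm6a stretch, chrX:18162361-18162574, ends at the base before the GENCODE start. The Kdm6b stretches are chr11:69418841-69419140, the central 300 bases of its strongest upstream site, and chr11:69417541-69417800, all of the next.
Kdm6a promoter: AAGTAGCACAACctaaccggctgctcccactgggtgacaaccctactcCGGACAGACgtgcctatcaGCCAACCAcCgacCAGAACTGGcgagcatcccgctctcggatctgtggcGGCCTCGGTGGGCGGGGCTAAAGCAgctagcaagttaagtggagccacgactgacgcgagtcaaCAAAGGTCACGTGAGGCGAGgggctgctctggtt
Kdm6b strongest upstream site: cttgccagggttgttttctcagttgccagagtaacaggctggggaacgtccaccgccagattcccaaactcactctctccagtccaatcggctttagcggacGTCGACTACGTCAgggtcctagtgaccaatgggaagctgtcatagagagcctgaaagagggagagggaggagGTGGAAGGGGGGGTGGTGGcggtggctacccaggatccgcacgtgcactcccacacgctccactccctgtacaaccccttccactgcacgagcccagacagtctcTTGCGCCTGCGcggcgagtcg
Kdm6b second upstream site: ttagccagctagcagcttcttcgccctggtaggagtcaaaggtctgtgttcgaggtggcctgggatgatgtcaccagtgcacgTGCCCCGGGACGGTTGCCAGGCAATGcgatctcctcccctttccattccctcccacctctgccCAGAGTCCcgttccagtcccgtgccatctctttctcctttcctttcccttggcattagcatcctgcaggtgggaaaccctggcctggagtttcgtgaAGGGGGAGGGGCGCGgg
The Kdm6a promoter held the SP/KLF consensus GGGCGGGG and the E-box CACGTG, each inside a footprint of both replicates. Among 11780 distinct open promoter peaks of coding genes, 36.1% and 10.5% held these sequences.

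The second set is every match of the consensus of NRF1, a factor known for binding CpG-rich promoters of housekeeping genes, in the promoter peaks of the set. Each is shown as 30 bases with the match in capitals; this consensus reads the same on both strands, and the plus strand is written.
Sirt6: tctttccagaGCGCATGCGCcctcctgatg
Sirt5: gccccatcccGCGCATGCGCgatggggtgc
Setd4: cctctggcacGCGCATGCGCaactcccagg
Dnmt1: cgaagggagtGCGCATGCGCgcaacggagg
Kdm5c: tctagagactGCGCATGCGCatcactggcc
The NRF1 consensus, the 10 capital letters, was present in 5 of the 63 distinct promoter peaks of the set, or 7.94%, against 2.29% of all 11780. It is 1 of several consensus sequences searched, and the background was not matched for CpG content. The 63 peaks are fewer than the 67 open members, of which 4 had strongest peaks that did not overlap between replicates. Median peak widths were 260 bp in the set and 240 bp in the background. All 5 matches counted as in footprints of both replicates, as did 97.1% (replicate 1) and 98.9% (replicate 2) of the 279 matches at all open promoters. A match counted so need not lie in a footprint over its whole length. A match is a description of the letters and not evidence of a bound factor.

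Promoters of these enzymes were open almost throughout. Of the 73 genes outside chromosome Y, 67 (91.8%) were open, against 62.3% of all coding genes. In 1 replicate at a time, 69 were open in replicate 1 and 69 in replicate 2. The set is rich in CpG: the median ratio of observed to expected CpG around the 5′ end was 0.75, against 0.558 for all coding genes. Among genes with a ratio of 0.6 or more, 50 of 52 members (96.2%) were open, beside 93% of all such genes, so that among CpG-rich genes the share was near the background.

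The open promoters of the set were also strong at the median. Their median signal, taken as the mean of both replicates, was 5.55, against 4.03 for all 13545 open coding genes. Signal was taken from the strongest of all starts, and members had a median of 7 starts, against 3 for all coding genes. With the 5′ end alone the medians were 5.17 and 4.02. Among genes with a CpG ratio of 0.6 or more they were 6.40 and 4.94. Of the 67 open members, 47 (70.1%) stood above the median of all open promoters and 11 in the strongest 10%. The range ran from 0.485 ± 0.0319 (SD, n = 2) at Hdac9 to 23.9 ± 8.59 (SD, n = 2) at Kdm6a. At 4 open members, Hdac9 and Eed among them, the strongest peaks of the replicates did not overlap. The values of such a gene come from different sites, and their SD does not describe 1 site. The median promoter peak was 240 bp wide in replicate 1 and 224 bp in replicate 2 and held 5 footprints in each, against 220 bp and 4 footprints for all open genes. Signal was higher in replicate 2 for 56 of 67 members, and 61.6% of all open genes had the same sign. The log2 ratio of replicate 2 to replicate 1 ran from -0.57 to 1.16 with a median of 0.25, against 0.11 for all open genes, and only Kmt2b (7.44 and 16.6) differed by 2-fold or more between the replicates.

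**Figure D1:**
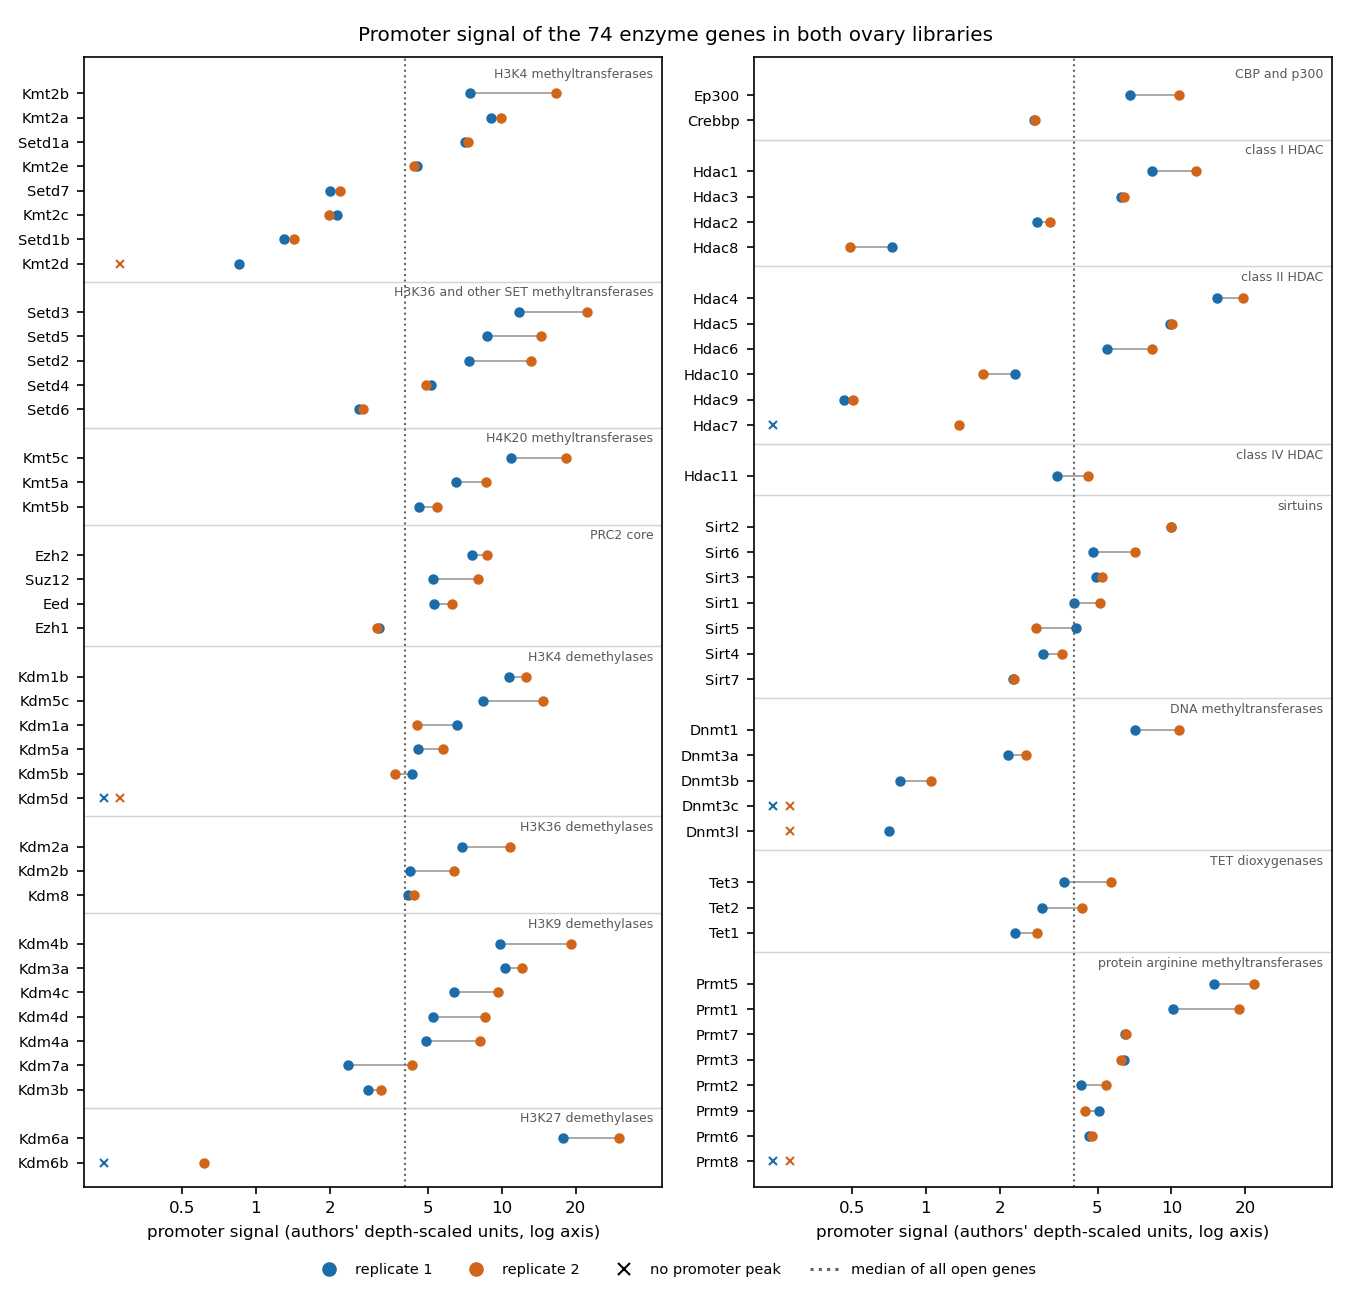
Promoter signal (authors' depth-scaled units, log axis) of each of the 74 genes, grouped by role, with 1 point per replicate joined by a line, a cross at the left edge for no promoter peak, and a dotted line at the median of all open coding genes (4.03). Kdm6a stands highest at 17.8 and 29.99, and 3 genes (Dnmt3c, Prmt8 and the Y-linked Kdm5d) have a cross in both replicates.

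Among methyltransferases of lysine 4 of histone H3, 7 of 8 promoters were open. Kmt2b and Kmt2a, catalytic subunits of MLL complexes, led them: Kmt2a had 9.09 in replicate 1 and 9.93 in replicate 2. Setd1a, the catalytic subunit of a COMPASS complex, reached 7.10 and 7.32, but its paralogue Setd1b reached 1.30 and 1.42. Kmt2c, an enzyme that acts at enhancers, was likewise low at 2.13 and 1.98. Kmt2d, the paralogue of Kmt2c, had only a weak peak of 0.850 in replicate 1 within 500 bp of a start and none in replicate 2. A stronger region shared by both replicates, at 4.04 and 4.23 (chr15:98872101-98872340), lay 897 bp upstream of its nearest GENCODE start, so that Kmt2d was open with a promoter of 1000 bp either side. Setd1b had the same arrangement in a milder form, with a region of 4.48 and 5.05 that ended 733 bp before its start.

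All 5 other SETD genes were open. Setd3, which methylates histidine of actin, was the strongest at 11.7 and 22.3 (17.0 ± 7.45, SD, n = 2), and its peak also lies at the start of Ccnk. Setd5 followed at 8.75 and 14.5; its promoter was a run of 4 adjacent regions, and the strongest of them was not the same one in both replicates. Setd2, the enzyme of H3 lysine 36 trimethylation, reached 7.36 and 13.2. All 3 methyltransferases of lysine 20 of histone H4 were open, with Kmt5c highest at 10.9 and 18.2 (14.6 ± 5.15, SD, n = 2) and Kmt5a, the monomethylating enzyme, at 6.49 and 8.61.

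The 4 core genes of Polycomb repressive complex 2, which methylates lysine 27 of histone H3, were all open but at different strengths. Ezh2, the main catalytic subunit, had 7.58 and 8.69 (8.13 ± 0.787, SD, n = 2), while its alternative Ezh1, known from nondividing cells, had 3.18 and 3.11 (3.14 ± 0.0459, SD, n = 2). Suz12 and Eed, the subunits that hold the complex together and read the mark, had 5.27 and 7.98, and 5.33 and 6.30. Both replicates of Ezh1 thus lay below both of the other 3 genes. Away from the promoter the order differed: Ezh1 had 4 shared regions over 2 kb from any coding start in its window, Suz12 had 2, and Ezh2 and Eed had 0. The strongest of the 4 at Ezh1, beyond its 3′ end (chr11:101189461-101189840), had 2.95 and 7.14, and its replicates lay on either side of those of the promoter.

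Ep300 and Crebbp are paralogues with largely shared substrates, and both promoters were open. Ep300 had 6.79 and 10.7 (8.75 ± 2.77, SD, n = 2) and Crebbp 2.76 and 2.79 (2.77 ± 0.0244, SD, n = 2), so that the replicates of the pair did not overlap. Crebbp ranked 8621 of the 13545 open promoters and Ep300 2575. The Crebbp peak held 6 and 9 footprints over 220 and 460 bp, and the Ep300 peak 5 and 6 over 220 and 200 bp.

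Lysine demethylases were open with the exception of Kdm6b and of the Y-linked Kdm5d, which had no peak in these female animals. For lysine 4 the strongest were Kdm1b (10.7 and 12.6, at a start shared with Tpmt) and the X-linked Kdm5c (8.38 and 14.8). For lysine 36 they were Kdm2a (6.87 and 10.8) and Kdm2b (4.24 and 6.42), which bind unmethylated CpG islands through a zinc finger. For lysine 9 they were Kdm4b (9.86 and 19.1) and Kdm3a (10.3 and 12.1); Kdm3a is known for its role in spermatogenesis. Kdm6a had 17.8 and 29.99 and ranked 10 of 13545. All 4 X-linked genes of the set were open, and beside Kdm6a and Kdm5c, which escape X inactivation, stood Hdac6 at 5.47 and 8.35 and Hdac8 at only 0.732 and 0.492.

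Among deacetylases of class I, Hdac1 (8.32 and 12.6) and Hdac3 (6.24 and 6.39) were the strongest; Hdac3 is the catalytic subunit of NCoR complexes, and its peak also lies at the start of Rell2. Hdac2, which shares complexes with Hdac1, had 2.84 and 3.21. Class II was spread widest. Hdac4 had 15.3 and 19.5 (17.4 ± 2.97, SD, n = 2) and ranked 92, and Hdac5 had 9.84 and 10.03, whereas Hdac9, another member of the same subclass, had 0.463 and 0.508. Hdac7 had a peak in replicate 2 alone, at 1.37. The single class IV gene, Hdac11, had 3.43 and 4.59. All 7 sirtuins, deacylases that consume NAD+, were open in a narrower range: Sirt2 was highest at 9.91 and 9.92, at a start shared with Nfkbib, then Sirt6 at 4.78 and 7.12, and Sirt7 was lowest at 2.27 and 2.28.

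DNA methyltransferases had the smallest open share of the groups with more than 2 genes, 3 of 5 (60%). That is near the 62.3% of all coding genes. The median CpG ratio of these 5 genes was 0.212, against 0.558 for all coding genes. Dnmt1, the maintenance enzyme, had 7.09 and 10.7 (8.89 ± 2.54, SD, n = 2). The de novo enzymes were weaker, with Dnmt3a at 2.15 and 2.56 and Dnmt3b at 0.786 and 1.05. Dnmt3c, a rodent duplicate of Dnmt3b, had no promoter peak in either replicate, while 2 shared regions inside its body had means of 0.631 and 0.831. Dnmt3l, a cofactor without catalytic activity, had a peak of 0.710 in replicate 1 alone, at an internal start. All 3 TET genes were open, with Tet3 at 3.64 and 5.66, Tet2 at 2.98 and 4.32 and Tet1 at 2.31 and 2.83. Every one of the 3 pairs of replicates thus lay below both replicates of Dnmt1.

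Arginine methyltransferases were open in 7 of 8 cases. Prmt5, the main enzyme of symmetric dimethylation, had 14.9 and 21.6 (18.2 ± 4.75, SD, n = 2) and ranked 56. Prmt1, the main enzyme of asymmetric dimethylation, had 10.1 and 18.9. Prmt8 had no promoter peak in either replicate despite a CpG ratio of 0.709, and Kmt2d was the other CpG-rich gene not called open. The 3 shared regions in the Prmt8 window were weak to moderate, with means of 0.643 to 1.54.

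For comparison, 83 other chromatin genes (acetyltransferases, other histone methyltransferases and jumonji proteins, and partners of the Polycomb, COMPASS, deacetylase and DNA methylation complexes) were described in the same way. Of these, 79 (95.2%) were open with a median signal of 5.82, near the values of the enzyme set. The strongest were Kat6b, an acetyltransferase, at 13.1 and 22.6 and Mbd3, a NuRD subunit, at 12.7 and 24.4. The 4 not open in both replicates were Smyd1, a muscle methyltransferase with no peak, and Phf2, Hr and Mta1, each with a peak in replicate 1 alone (0.786, 0.818 and 0.538). The Y-linked Uty, which is not among the 83, had none.

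In 12 of the 67 open members the strongest promoter peak lay over 500 bp from the annotated 5′ end, at another start. The same share was not counted over all open genes. Members had a median of 7 starts, against 3 for all coding genes, so the 12 cannot be read as a trait of the set. At 6 of these 12 (Dnmt1, Kdm4c, Tet3, Sirt1, Tet1 and Hdac9) no peak lay at the 5′ end in either replicate. For Dnmt1 the open start lay 6.85 kb inside the gene, and its transcripts include the one with the longest coding sequence; it is also the site of the NRF1 match shown above. For Kdm4c, Sirt1 and Hdac4 the open starts lay 9.22, 42.5 and 15.1 kb inside, again with transcripts of the full coding length. At Hdac4 the 5′ end itself had 1.32 and 1.56, against 15.3 and 19.5 inside.

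Dnmt3a and Tet2 also had their strongest peak at starts with the full coding length, 0.854 and 0.659 kb inside. Other internal starts belong to transcripts with a shorter or no coding part. The strongest Kdm2a peak lay 64.1 kb inside, where coding transcripts hold 25.2% of the longest coding sequence, although another Kdm2a start 1190 bp from the 5′ end reached 6.71 and 10.2. The Kdm2b peak lay 89.3 kb inside, with 59.3% of the longest coding sequence, at 4.24 and 6.42 against 1.41 and 1.07 at the 5′ end. At Tet1 the strongest peak lay 43.4 kb inside, at the start of a transcript annotated without a coding sequence. In all, 15 of the 65 members with 2 or more separate starts had 2 or more of them open in both replicates. The same count was not made over all coding genes, so whether this share is particular to the set was not tested.

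**Figure D2:**
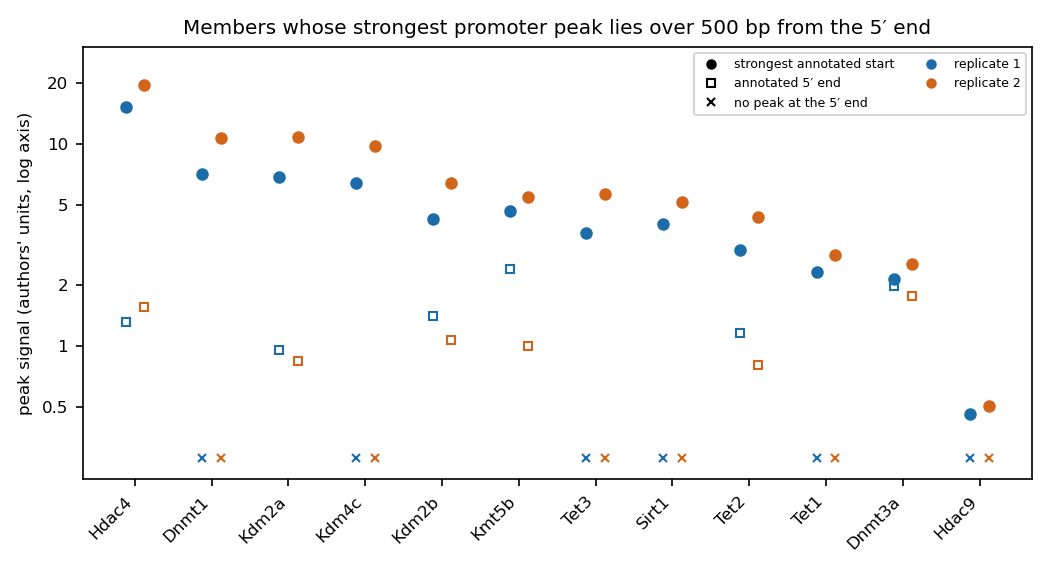
Peak signal (authors' units, log axis) of the 12 members whose strongest promoter peak lay over 500 bp from the 5′ end; filled circles show the strongest start, open squares the 5′ end, crosses at the bottom no peak at the 5′ end, and colours the replicates. At Hdac4 the circles stand at 15.3 and 19.5 and the squares at 1.32 and 1.56.

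Beyond promoters, regions open in both replicates were counted over each gene body and 10 kb either side. The median member had 4 such regions, against 2 for all coding genes, and member genes are longer, with a median body of 41.8 kb against 17.4 kb. Per 100 kb of window the medians were 6.34 and 4.50. A region over 2 kb from any coding start, called distal here, was present in 45 of 73 windows (61.6%), against 49% of all genes. Among genes with a CpG ratio of 0.6 or more the shares were 55.8% of members and 58.6% of all such genes. These shares were not matched for gene length. The windows held 363 distinct shared regions, of which 135 (37.2%) were distal. Distal regions made up 61.8% of the 64875 shared regions of the series, which include those far from any gene. The windows are drawn around genes, so the 2 shares cannot be compared directly. The median signal of distal regions was 1.17 in the windows, against 0.894 in the series.

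**Figure D3:**
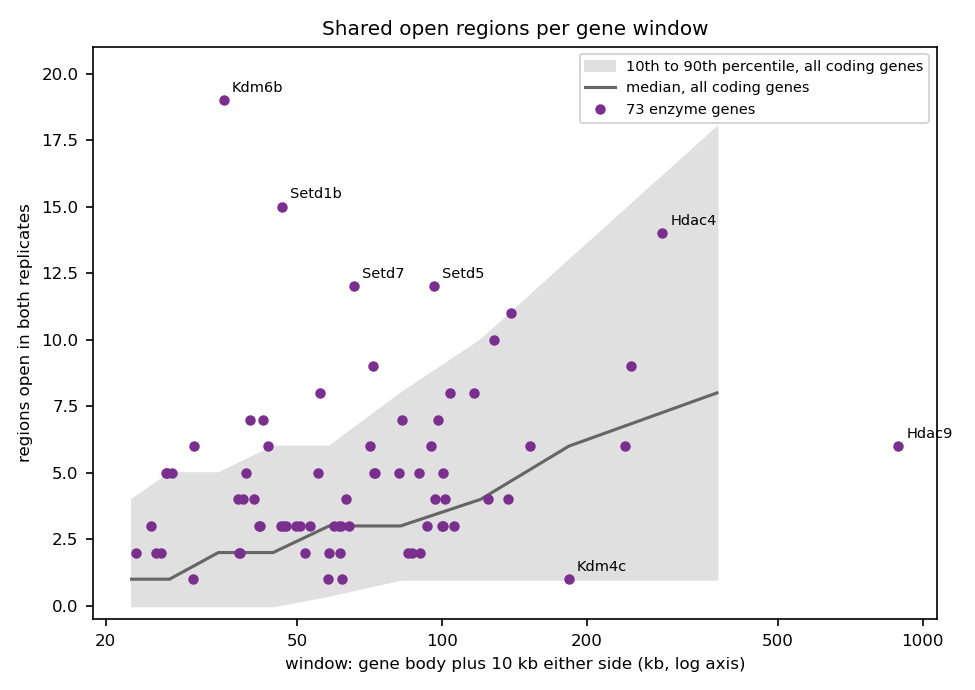
Number of regions open in both replicates against the length of the gene window (kb, log axis) for the 73 members (points), with the median (line) and the 10th to 90th percentile (band) of all coding genes. Kdm6b with 19 regions, Setd1b with 15, and Setd5 and Setd7 with 12 each are among the members above the band. Hdac9, which has the longest window, holds 6.

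The 5 members with the most shared regions were Kdm6b (19), Setd1b (15), Hdac4 (14), Setd5 (12) and Setd7 (12). At Setd1b, 8 intergenic regions lay between its start and that of its neighbour Rhof, and the strongest of them (chr5:123136481-123136720) had 5.40 and 8.81, against 1.30 and 1.42 at the Setd1b start itself. In the Hdac4 gene, 8 distal regions were spread over its introns, with means from 0.764 to 2.22. Setd5 had 1 strong distal site, in an intron 22436 bp from its 5′ end (5.63 and 4.70), among 4 weaker ones. Setd7, a monomethyltransferase of lysine 4 of histone H3 and of other proteins, had 6 distal regions with means from 0.650 to 1.86, and the strongest site of its window (2.73 and 3.06) lay in an intron 1138 bp from its 5′ end.

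Kdm6b (chr11:69398508-69413675, minus strand) encodes a demethylase that removes methyl groups from lysine 27 of histone H3 and is known as an inducible gene in macrophages. Its promoter, by GENCODE starts, held only weak peaks in replicate 2, the strongest of them 0.617 at an internal start, and none in replicate 1. Its window of 35.2 kb held 19 regions open in both replicates, of which 13 were distal. As many were found in the windows of 0.487% of coding genes, a share that was 1.49% without replicate 2, 0.0506% without replicate 1 and 7.46% in the gene body alone. Per length of window Kdm6b, at 54.0 per 100 kb, stood 2nd of 21755 after Zfp503 at 54.6. Of the 19, 17 held a footprint in both replicates and 16 were present in both shorter lists. The same shares were not counted over all shared regions of the series. The median signal was 2.34 for the 19 and 1.07 for the shared regions of the series.

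Upstream of the 5′ end lay 7 of the 19 regions, centred at most 6546 bp from it. The strongest was centred 5316 bp upstream (chr11:69418821-69419160), with 5.53 and 10.7 (8.14 ± 3.69, SD, n = 2). The next, 3996 bp upstream (chr11:69417541-69417800), had 7.24 and 7.45 (7.35 ± 0.144, SD, n = 2), and these are the 2 sites whose sequences stand above. Another, 4466 bp upstream, had 5.52 and 7.30. All 3 exceeded the 4.03 median of open promoters in both replicates, and only 0.357% of distal regions of the series matched or exceeded the strongest. The other 4, centred 1736, 2556, 5976 and 6546 bp upstream, had means of 1.82, 2.28, 0.760 and 1.18.

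Whether these sites count as promoters depends on the annotation. RefSeq places 1 curated Kdm6b start 2519 bp upstream of the GENCODE 5′ end, inside the region with 1.56 and 2.99. Predicted RefSeq starts lie 2674 bp upstream, in the same region, 4465 bp upstream, inside the region with 5.52 and 7.30, and 6692 bp upstream, inside the region with 1.30 and 1.06. In the gene body, predicted starts lie inside 2 shared regions, with 5.89 and 4.38 and with 1.17 and 0.969. The strongest upstream site and that with 7.24 and 7.45 contain no RefSeq start. With RefSeq starts added, an alternative chosen after the data were seen, Kdm6b (7.24 and 7.45 within 500 bp of a start) and Hdac7 (2.86 and 3.44) were open too, each by a predicted transcript, and 69 of 73 members were open.

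Within the gene body lay 6 shared regions. The strongest, in a GENCODE intron 2384 bp from the 5′ end (chr11:69411181-69411400), had 5.89 and 4.38 (5.14 ± 1.06, SD, n = 2), and a predicted RefSeq start lies inside it. The others had means between 1.07 and 2.96. Beyond the 3′ end lay another 6 regions, of which 3 (up to 6.92 and 10.2) lie at starts of Naa38, 1 (0.775 and 0.719) lies near that of Tmem88, and 2 are intergenic, with means of 1.19 and 1.36. Upstream and body regions thus made up 13 of the 19, and 4 of the rest lay at promoters of neighbouring genes.

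Replicate 2 held a further 25 regions in the Kdm6b window that replicate 1 lacked, and replicate 1 held 0 that replicate 2 lacked. Of these, 18 lay inside the gene body and 15 were classed as exonic. They were weak, from 0.360 to 1.48 with a median of 0.438, and their median GC content was 56.9%, against 54.2% for the whole window. The median was 60.6% for the 19 shared regions of the window and 54.5% for regions of replicate 2 alone in the series. The median member had 1 region of replicate 2 alone and 1 of replicate 1 alone. The signal step, of which all peak signals are whole multiples, was smaller in replicate 2 (0.00782) than in replicate 1 (0.0108). What 1 step counts is not stated, and the part of depth in these 25 regions was not tested.

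**Figure D4:**
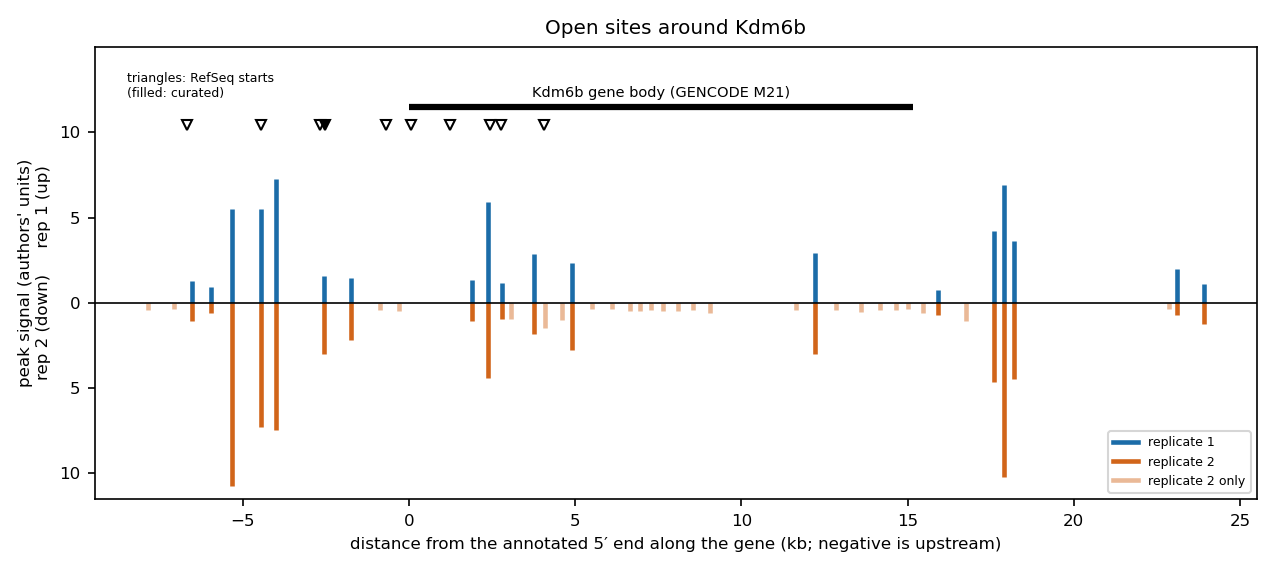
Peaks around Kdm6b by distance from its annotated 5′ end (kb, negative upstream), with signal in the authors' units upward for replicate 1 and downward for replicate 2; pale lines are regions of replicate 2 alone, the bar is the gene body and triangles are RefSeq starts. The 3 tall upstream regions reach 5.53, 5.52 and 7.24 in replicate 1, and the pale lines stay at or below 1.48.

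CTCF is a zinc finger protein known for binding at loop boundaries. A CTCF consensus with 4 free positions was found at 4 sites of the Kdm6b window. At 2 of these the match counted as in a footprint of both replicates, although the intron match reached past the shared footprint. These 2 are shown with the match in capitals and on the strand that reads the consensus.
Kdm6b 3′ flank, chr11:69390563-69390592, minus strand: cctctatgaCCACCAGGTGGCtctaatgac
Kdm6b GENCODE intron, chr11:69411213-69411242, plus strand: ctacagcccCCAAAAGCCGGCcgcccagaa
Across the windows of the set, 26 of 135 distal regions (19.3%) held this consensus, against 4815 of the 40065 of the series (12%). The 4 Kdm6b sites are among the 26, and the series was not matched for distance to genes. The AP-1 consensus TGANTCA was in 12.6% and 14.6%, and the NR5A consensus CAAGGTCA, known from steroidogenic genes, in 5.93% and 7.19%. At promoters, NR5A and the GATA consensus AGATAA were found in 0 of 63 peaks of the set, against 0.993% and 2.90% of all open promoters. The ETS consensus CCGGAAG was near the background at 19.0% and 17.8%, and the RUNX consensus TGTGGT was found in 19.0% against 8.68%. Searches were exact and on both strands, matches of different consensus sequences overlapped at 3 of 285 places, and windows without a match show only that these letters are not there.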

How the data were processed

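DNase-seq of whole ovary gave 2 libraries in 1 group. Per the deposited text files, each library has 2 peak lists, a footprint list and a list of false discovery rates of the cut rate, all on mm10 and made from that library's own alignments. No source used here names the aligner, the callers or the handling of CAST alleles in mapping. Peak signal was scaled for depth by the authors: 100% of values were whole multiples, within 0.05, of 1 step of 0.0108 in replicate 1 and 0.00782 in replicate 2, and the target depth is not stated. The deposited false discovery rates (p-value kind) are listed only below 0.05, and footprints carry a constant p-value label in the deposited files.

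Genes and starts came from GENCODE M21, reference sequence and the added starts from RefSeq GRCm38.p6, whose chromosome lengths hold all peaks. Symbols and gene models were matched for 74 members; RefSeq mRNA starts were found for 93.8% of coding genes. Overlap was at least 1 bp; a shared region is a merged stretch with peaks of both replicates. The CpG ratio was taken around the annotated 5′ end. Python 3.11.15, NumPy 2.4.6 and Matplotlib 3.10.9 were used, and the counting was tested on simulated data.

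With 2 libraries of 1 group no test was made; values are given per replicate, as mean ± SD, and beside all coding genes. No source used here says whether 1 animal or more gave the libraries, so the SD may be technical. Members and gene lists were chosen with earlier results of these data known. Named genes are the Polycomb and CBP/p300 genes, the 2 strongest of each role group, members not open in both replicates, the 5 with most shared regions, and for the comparison genes the 2 strongest and those not open. Others were named after their values were seen: Setd1a, Kmt2c, Setd2, Hdac2, Hdac6, Hdac8, Hdac9, Sirt7, Dnmt3b, Tet1, and the members with internal starts or NRF1 matches. Alternatives were the shorter lists, the strongest 20000 peaks, other promoter windows, flanks and overlaps, the 5′ end alone, RefSeq starts and each replicate left out.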

Additional observations from a re-analysis of the deposited data

How the results depend on the processing

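The count of open members ran from 61 (the annotated 5′ end alone) to 69 of 73 over the alternatives, and that of the comparison genes from 71 to 82 of 83. Coding genes as a whole ran from 46.1% with the strongest 20000 peaks, where 63 members (86.3%) were open, to 64.6%. The median promoter signal of open members was 4.94 without replicate 2 and 5.78 without replicate 1. The median number of shared regions per member fell from 4 to 2 with the strongest 20000 peaks and to 2 in the gene body alone, where fewer bases are searched, and was 5 to 6 with a replicate left out. At Kdm6b the 19 regions became 10 with the strongest 20000 peaks, 6 in the gene body alone, and 20 to 48 with a replicate left out; the 48 are the peaks of replicate 2. The share of coding genes with as many regions was 0.147% with the shorter lists, 0.0598% with the strongest 20000 peaks and 7.46% (1624 genes) in the gene body alone. No paired analysis was possible because the 2 libraries form 1 group. The read depth is not stated, which limits statements on genes without a peak, as these may hold cuts too few to be listed.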
